A study of Arabidopsis thaliana with 6 samples.

Results

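The 4 nicotianamine synthase genes of Arabidopsis thaliana, NAS1, NAS2, NAS3 and NAS4, were followed by name through RNA-seq values of 27052 gene entries and a list of ChIP-seq peaks of the transcription factor SPL7. Each of the 4 names matched 1 entry, and no other entry overlapped any of them. Nicotianamine synthases join molecules of S-adenosylmethionine into nicotianamine, a small chelator that binds iron, copper, zinc and other metals, and release 5′-methylthioadenosine. Nicotianamine keeps these metals soluble inside the plant and accompanies them in the phloem and between cells, with transporters of the YSL family moving the complexes. SPL7 is known as the main regulator of the copper deficiency response.

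Whole seedlings were harvested 7 days after germination, having had 4 days of cold at 4 °C and growth at 22 °C under continuous light. The RNA-seq groups were the spl7 mutant with 5 µM CuSO4 added to standard MS (Murashige and Skoog) medium, the spl7 mutant on MS, Col-0 wild type with 5 µM added CuSO4, and Col-0 wild type on MS. Each group was 1 library, the spl7 allele is not named in the labels, and no copper beyond that of the medium was added in the MS groups. The ChIP-seq used a FLAG antibody on seedlings with a 35S:FLAG-SPL7 transgene, whose promoter is active in most cells, against spl7 seedlings as the negative control, and gave 1 list of 1535 peaks. With no replicates, no spread between samples can be given, no test was run, and no difference below has a replicate check.

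Levels are given in FPKM, a unit for sequenced fragments per kilobase of transcript after scaling to the size of the library. Being per kilobase, they can be set side by side between genes. How the authors' values were scaled is not stated. Limits in FPKM used below therefore hold on the scale of these values and may not match those of other data. The libraries summed to between 4383941 and 4694637 FPKM, and the number of reads behind a value is unknown. SPL7 itself stood at 20.7 and 20.2 FPKM in the spl7 libraries with copper and on MS, against 105 and 107 FPKM in the matching wild-type libraries. FSD1, the iron superoxide dismutase that plants use when copper is short, stood at 9.38 FPKM in spl7 with copper, 7.64 FPKM in spl7 on MS, 14.0 FPKM in wild type with copper and 5647 FPKM in wild type on MS. Markers of root, shoot and vasculature were above 0 in every library, 18 of 18. In whole seedlings, fewer cells of a type and less RNA per cell cannot be told apart.

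NAS1 (AT5G04950; TAIR10 chromosome 5, 1457645 to 1458890) was the highest of the 4 genes in every library. It stood at 319 FPKM in spl7 with copper, 237 FPKM in spl7 on MS, 440 FPKM in wild type with copper and 317 FPKM in wild type on MS. The copper-fed library was higher in both genotypes, and the spl7 library was lower on both media. In its lowest library NAS1 still stood above 88.3% of all gene entries.

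NAS2 (AT5G56080; chromosome 5, 22711402 to 22712364), known for expression mainly in roots, was the lowest of the 4. It stood at 10.6 FPKM in spl7 with copper, was listed at 0 in spl7 on MS, and stood at 14.3 FPKM in wild type with copper and 3.92 FPKM in wild type on MS. Its entry spans 963 bp, a multiple of 3, and is the shortest of the set, against 1246 bp for NAS1, 1250 bp for NAS3 and 1144 bp for NAS4.

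NAS3 (AT1G09240; chromosome 1, 2984881 to 2986130), known from leaves, ran the other way. It stood at 59.8 FPKM in spl7 with copper, 154 FPKM in spl7 on MS, 51.1 FPKM in wild type with copper and 97.9 FPKM in wild type on MS. The MS library was the higher in both genotypes, and spl7 was the higher on both media. The highest library was 3.02 times the lowest.

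NAS4 (AT1G56430; chromosome 1, 21136944 to 21138087), a known target of the iron regulator PYE, was the flattest of the set. It stood at 97.9 FPKM in spl7 with copper, 94.1 FPKM in spl7 on MS, 106 FPKM in wild type with copper and 109 FPKM in wild type on MS. The highest library was 1.16 times the lowest, a gap of 14.9 FPKM.

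**Figure D1:**
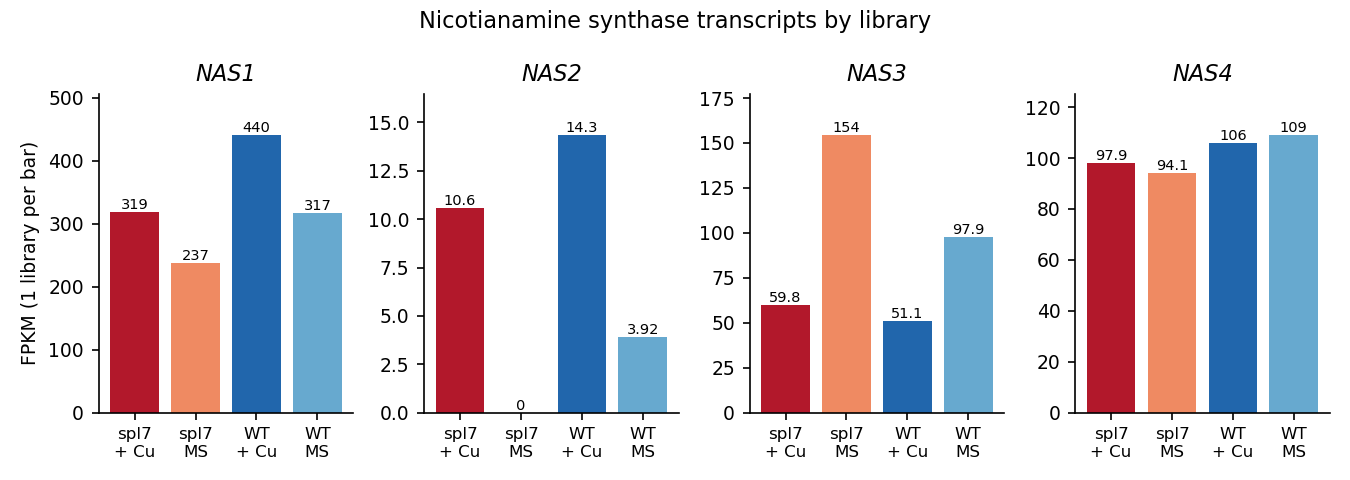
Level of each nicotianamine synthase gene in FPKM (vertical axes, each with its own scale from 0), with 1 bar per library. NAS1 and NAS2 are higher in the copper-fed library of either genotype, NAS3 is higher on MS in either genotype, and NAS4 lies between 94.1 and 109 FPKM throughout.

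The order of the libraries was the same for NAS1 and NAS2: wild type with copper, spl7 with copper, wild type on MS, then spl7 on MS. For NAS3 it was spl7 on MS, wild type on MS, spl7 with copper, then wild type with copper, which is the reverse. For NAS1 the middle libraries, spl7 with copper at 319 FPKM and wild type on MS at 317 FPKM, were nearly level. Without replicates it cannot be said which neighbours in these orders differ beyond their spread. Wild type on MS, the library where FSD1 stood far above the other 3, was neither the highest nor the lowest for NAS1, NAS2 or NAS3. It was the highest for NAS4, at 109 FPKM beside 106 FPKM in wild type with copper.

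The first comparison was of spl7 with wild type on MS. Log2 ratios here and below are of FPKM + 1, a scale that understates the change of low genes, and a gene is called counted where its ratio was 2-fold or more and 1 of the libraries compared held 5 FPKM or more. None of the 4 genes was counted, where 1.59% of 18658 entries were. NAS1 had a log2 ratio of -0.42, and 4.24% of entries of at least 20 FPKM were as low or lower. NAS3 had a log2 ratio of 0.65, and 1.20% of such entries were as high or higher. NAS4 had a log2 ratio of -0.21, well inside the central 95% of those entries, which ran from -0.50 to 0.51. NAS2 was listed at 0 in spl7, against 3.92 FPKM in wild type, and did not reach the minimum level. Of 719 entries between 3 and 5 FPKM in wild type on MS, 57 (7.93%) were listed at 0 in spl7 on MS.

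With added copper, again none of the 4 was counted in spl7 against wild type, where 1.8% of 18805 entries were. NAS1 had a log2 ratio of -0.47, just below the central 95% of entries of at least 20 FPKM (-0.42 to 0.47), and NAS2 one of -0.41. NAS3 had a log2 ratio of 0.22 and NAS4 one of -0.11. The spl7 library was thus lower for NAS1, NAS2 and NAS4 and higher for NAS3 on both media. Of all entries that reached the minimum level on both media, 67.7% also kept 1 direction. No library is shared between these comparisons.

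The third comparison was of added copper with MS in wild type. NAS2 was counted as higher, at 14.3 FPKM with copper against 3.92 FPKM on MS (log2 ratio 1.64). It reached the minimum level only through the copper-fed library, so it could be counted as higher but not as lower. The same count took in 1.33% of 18742 entries in either direction and 0.95% as higher. NAS3, at 51.1 FPKM with copper and 97.9 FPKM on MS, fell just short of 2-fold with a log2 ratio of -0.93. Only 0.201% of entries of at least 20 FPKM were as low or lower. NAS1 had a log2 ratio of 0.47, slightly above the central 95% (-0.31 to 0.43), and NAS4 one of -0.039.

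The fourth comparison was of added copper with MS in the spl7 mutant. NAS3 was counted as lower, at 59.8 FPKM with copper against 154 FPKM on MS (log2 ratio -1.35). NAS2 was counted as higher, at 10.6 FPKM with copper, but was listed at 0 on MS, so no ratio is given and only a count as higher was possible. Counted in this comparison were 2.51% of 18707 entries, 1.99% as higher and 0.524% as lower. NAS1 had a log2 ratio of 0.42 and NAS4 one of 0.057, both inside the central 95% (-0.43 to 0.66).

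**Figure D2:**
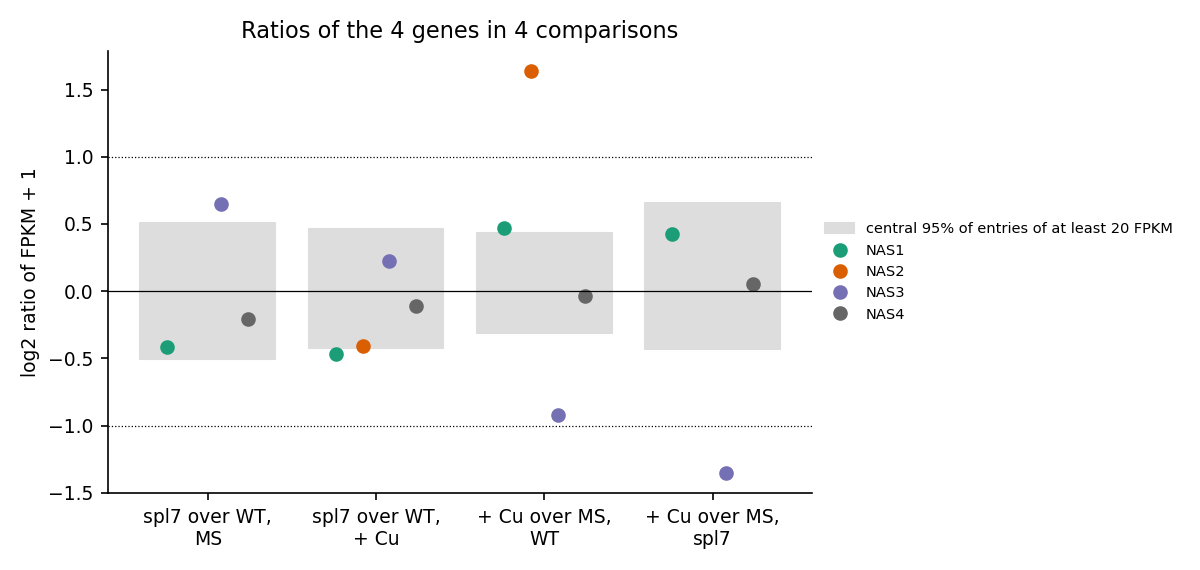
Log2 ratios of FPKM + 1 (vertical axis) of the 4 genes in the 4 comparisons (horizontal axis), with the central 95% of all entries of at least 20 FPKM as grey bands and the 2-fold limits as dotted lines. NAS2 has no point where a library is at 0; NAS3 lies below the band in both copper comparisons, at -0.93 and -1.35.

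The copper comparisons of the genotypes share no library, and NAS1, NAS2 and NAS3 each kept their direction in both. Among all 18460 entries that reached the minimum level in both, 61.2% had ratios of 1 sign. NAS2 was 1 of 87 entries (0.471%) counted as higher with copper in both genotypes. On MS it lay under 5 FPKM in both genotypes, so it reached the minimum level only through its copper-fed libraries. At such levels on MS it could be counted as higher but not as lower. Copper ratios at or below those of NAS3 in both genotypes were found for 3 of 15101 entries of at least 20 FPKM, NAS3 included; this limit was set from the values of NAS3 itself. The copper ratio in spl7 minus that in wild type was -0.048 for NAS1, -0.43 for NAS3 and 0.096 for NAS4. None of these reached a log2 difference of 1, which 2.53% of 18989 entries did. NAS2 did reach it as counted, but that rests on its value of 0 in spl7 on MS.

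Because FPKM is per length, the 4 levels can be added. Their sum was 487 FPKM in spl7 with copper, 486 FPKM in spl7 on MS, 612 FPKM in wild type with copper and 528 FPKM in wild type on MS. In spl7 the sum with copper was thus 0.237% above that on MS, while the shares within it differed: NAS1 made up 65.4% with copper against 48.8% on MS, and NAS3 12.3% against 31.8%. That near equality of the sums depends on the scaling. With libraries rescaled to the same total, the copper log2 ratios in spl7 rose from 0.42 to 0.52 for NAS1, from -1.35 to -1.26 for NAS3 and from 0.057 to 0.15 for NAS4. Rescaled to the same median instead, they hardly moved, at 0.425 for NAS1, -1.35 for NAS3 and 0.058 for NAS4. Such scaling leaves the shares as they are. In wild type the sum was 15.9% higher with copper; NAS1 made up 72.0% of it with copper against 60.1% on MS, and NAS3 8.35% against 18.5%. The share of NAS4 lay between 17.3% and 20.6% in all 4 libraries, and that of NAS2 did not pass 2.34%. The level of NAS1 was 5.33 times that of NAS3 in spl7 with copper and 1.54 times in spl7 on MS, against 8.62 times in wild type with copper and 3.24 times in wild type on MS. Only uniquely mapped reads were used by the authors, so stretches that the related NAS genes share may be undercounted, and by how much was not tested.

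**Figure D3:**
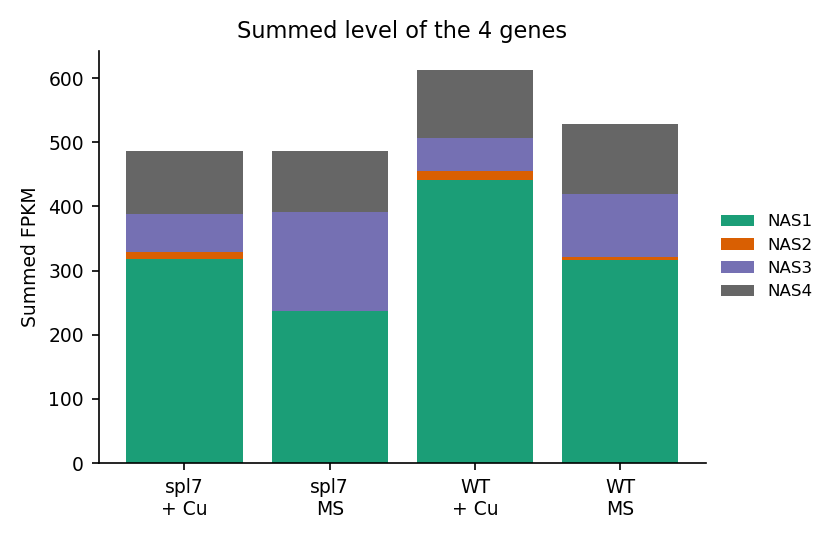
Summed level of the 4 genes in FPKM (vertical axis, from 0) in each library, with the part of each gene in its own colour. The spl7 bars are nearly equal, at 487 and 486 FPKM, with NAS3 making up 12.3% with copper and 31.8% on MS.

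Levels of tissue markers were set beside these values. The 5 vasculature markers summed to 1181 FPKM in spl7 with copper and 1482 FPKM in spl7 on MS. In wild type they summed to 1117 FPKM with copper and 1234 FPKM on MS, so the sums had the order of NAS3. SUC2 was a large part of them, at 704 FPKM in spl7 on MS. Taken singly, SUC2 and APL had that order, and PHO1, XCP1 and XCP2 did not. PHO1 was higher with copper, at 249 against 229 FPKM in spl7 and 226 against 187 FPKM in wild type. The median log2 ratio of the 5 markers for copper was -0.40 in spl7 and -0.048 in wild type, with none of 5 counted in either. The 7 root markers had median ratios of spl7 to wild type of -0.36 on MS and -0.19 with copper, beside the lower NAS1 and NAS2, again with none counted. Their median copper ratios were -0.094 in spl7 and -0.19 in wild type, whereas NAS1 and NAS2 were higher with copper in both genotypes. The root markers summed to 4308 FPKM in spl7 with copper and 4766 FPKM in spl7 on MS, against 4696 and 4919 FPKM in the matching wild-type libraries. PYK10 was most of each sum, at 4016 to 4551 FPKM. The 6 shoot markers had a median copper ratio of -0.23 in spl7 and -0.082 in wild type, with sums of 173527 FPKM with copper against 200649 FPKM on MS in spl7, and 177432 against 190513 FPKM in wild type. Of the 9 seed storage and embryo markers, 6 reached the minimum level for copper in spl7, and 3 were counted as higher, where 1.99% of all entries were. In wild type all 9 reached it and 5 were counted as higher, where 0.95% of all entries were. In spl7 against wild type, 6 of 9 were counted as lower with copper and 2 of 8 on MS. Of all entries, 153 of 18805 were counted as lower with copper and 196 of 18658 (1.05%) on MS. The 9 markers summed to 548 FPKM with copper against 207 FPKM on MS in spl7, and 657 against 316 FPKM in wild type. CRU2 and SESA4 were at 0 in both spl7 libraries, SESA2 in spl7 with copper and SESA4 in wild type on MS. The part of these markers in the NAS values was not tested.

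The genes that feed the reaction and clear its by-product held no counted difference in the same libraries. Between 1.33% and 2.51% of all entries were counted per comparison, and a count of 0 in lists this short lies near that share. None of the 4 S-adenosylmethionine synthetase genes was counted in any of the 4 comparisons. They summed to 7739 FPKM in spl7 with copper, 8242 FPKM in spl7 on MS, 8043 FPKM in wild type with copper and 9119 FPKM in wild type on MS, with list medians between -0.18 and -0.080. Of the 9 genes that recycle 5′-methylthioadenosine, 8 reached the minimum level and none was counted in any comparison, with list medians between -0.057 and 0.069; the remaining one, ARD3, was listed at 0 in all 4 libraries. The median over all entries lay between -0.030 and -0.0012 in the 4 comparisons.

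Carriers of nicotianamine and its metal complexes included 3 genes of 11 that were counted in at least 1 of the 4 comparisons. Each comparison held 1 or 2 of them, where between 1.33% and 2.51% of all entries were counted. YSL2, a transporter of metal-nicotianamine complexes, stood at 11.8 FPKM in spl7 with copper, 13.6 FPKM in spl7 on MS, 14.5 FPKM in wild type with copper and 301 FPKM in wild type on MS, and shares its locus with another entry. YSL3, which moves such complexes in vascular tissue, stood at 44.1, 55.5, 54.0 and 128 FPKM in the same order of libraries. Both stood apart in wild type on MS, as FSD1 did, and none of the 4 nicotianamine synthases did. YSL7 was counted as higher in spl7 than in wild type with copper, at 41.9 against 17.3 FPKM, and higher with copper than on MS in spl7, at 41.9 against 20.1 FPKM. The other 8, ZIF1 among them, the vacuolar carrier of nicotianamine, were not counted in any comparison.

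Of the 14 iron regulators, 12 reached the minimum level. Counted as lower with copper in spl7 were 3, where 0.524% of all entries were, and 0 as higher. They are 3 of the 4 listed subgroup Ib basic helix-loop-helix factors, which iron deficiency induces. BHLH038 stood at 21.0 FPKM with copper against 67.2 FPKM on MS, BHLH039 at 17.5 against 40.3 FPKM and BHLH100 at 12.5 against 41.8 FPKM, with log2 ratios of -1.63, -1.16 and -1.66 beside the -1.35 of NAS3. BHLH101, the other listed factor of the subgroup, was not counted, at 32.4 FPKM with copper against 56.2 FPKM on MS and a log2 ratio of -0.77. In wild type the corresponding ratios were -0.61, -0.83 and -0.029, with none of 12 regulators counted. In the genotype comparisons 0 of 12 were counted on either medium. The list medians were -0.16 for copper in spl7 and -0.072 for copper in wild type.

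Among 13 genes of iron uptake and distribution, 12 reached the minimum level and 3 were counted as lower in spl7 on MS, where 1.05% of all entries were, with a list median of -0.41. The root iron transporter IRT1 stood at 20.2 FPKM in spl7 against 61.7 FPKM in wild type, the ferric reductase FRO2 at 11.9 against 30.0 FPKM, and the P450 enzyme CYP82C4 at 1.90 against 20.9 FPKM. With copper CYP82C4 alone was counted as lower in spl7, at 7.65 against 18.4 FPKM. For copper in spl7, CYP82C4 was the only one counted, as higher, at 7.65 FPKM against 1.90 FPKM on MS, and for copper in wild type none was. None of the 13 zinc deficiency genes, 9 of which reached the minimum level, and none of the 4 ferritin genes, which store iron in plastids, was counted in any comparison. NAS2 and NAS4 are themselves known members of the zinc deficiency response. Over all 68 genes of the 7 lists, 60 reached the minimum level, and those counted were 5 in spl7 against wild type on MS (all lower), 2 in spl7 against wild type with copper (1 higher, 1 lower), 2 for copper in wild type (both lower) and 5 for copper in spl7 (2 higher, 3 lower). In the same order, 1.59%, 1.8%, 1.33% and 2.51% of all entries tested were counted.

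**Figure D4:**
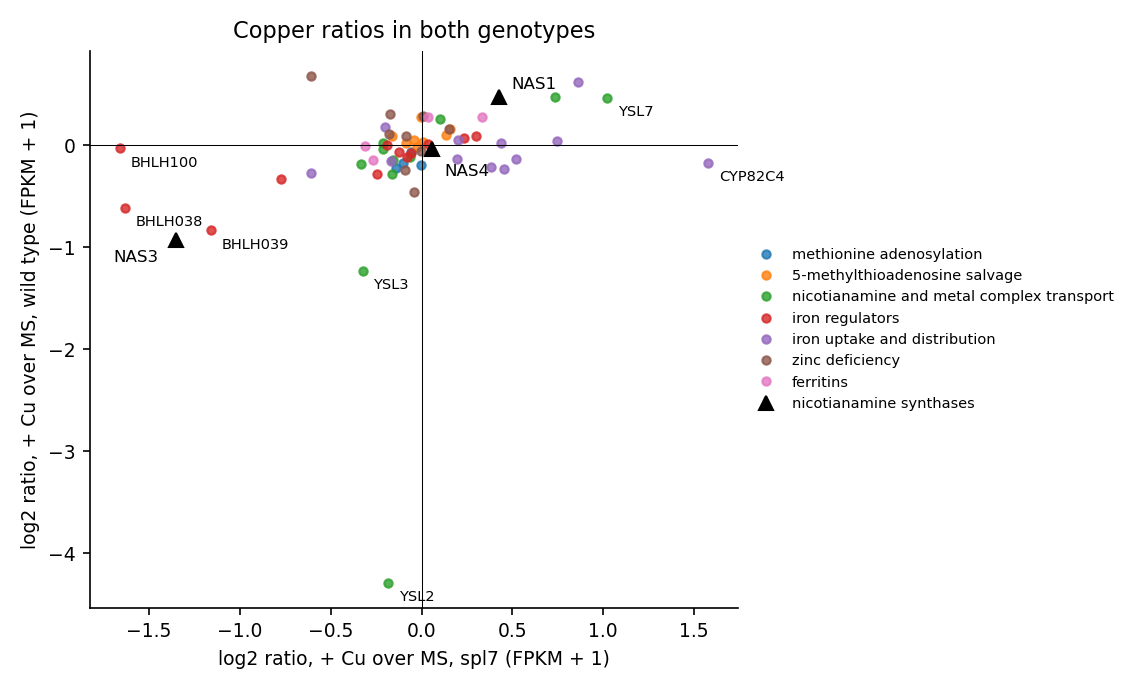
Log2 ratio of FPKM + 1 for copper over MS in spl7 (horizontal axis) and in wild type (vertical axis), 1 point per gene of the 7 lists with both values, and triangles for NAS1, NAS3 and NAS4; NAS2 is left out because it is at 0 in spl7 on MS. NAS3 (-1.35, -0.93) lies near BHLH038 and BHLH039, YSL2 and YSL3 lie low in wild type alone, and NAS4 lies near 0 on both axes.

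Entries of like profile were sought by the Euclidean distance between centred log2 values over the 4 libraries, among 18988 other entries of at least 5 FPKM in some library. With 4 libraries many genes lie close by, so the distance ranks them and no more. Nearest to NAS1 were PGL4 (distance 0.022), AT5G56810 (0.076) and AT2G41670 (0.081), with 132 entries within 0.25. PGL4 stood at 7.59 FPKM in spl7 with copper, 5.49 FPKM in spl7 on MS, 11.1 FPKM in wild type with copper and 7.55 FPKM in wild type on MS. NAS3 had no entry within 0.25; the nearest were PA2, a peroxidase (0.251), the cold-regulated gene COR15A (0.265) and AT3G27250 (0.281). COR15A stood at 15.98, 37.3, 15.0 and 23.5 FPKM in the same order of libraries. NAS2 had none either, with AT3G27630 (0.756), AT2G18193 (0.788) and AT4G32510 (0.858) as the nearest. The flat profile of NAS4 had 8499 entries within 0.25, led by SHD (0.0070), AT5G43210 (0.0083) and ENODL8 (0.0096).

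No SPL7 peak lay within 1 kb of any of the 4 genes (0 of 4), where 6.7% of all 27052 entries had one. The nearest peak to NAS4 lay 6.995 kb away (chromosome 1, 21129611 to 21129949), over the next entry, AT1G56423. That to NAS2 lay 13.976 kb away (chromosome 5, 22697084 to 22697426), over AT5G56040, with 4 entries in between. That to NAS3 lay 22.845 kb away (chromosome 1, 3008975 to 3009873), over AT1G09310, with 7 entries in between, and that to NAS1 96.914 kb away (chromosome 5, 1360341 to 1360731), over ADR1-L2, with 25 entries in between. The median entry lay 30.749 kb from a peak. The authors' score, whose scale is not stated, was 1222.67 for the peak nearest to NAS3, rank 107 of 1535, and between 181.31 and 219.02 for the other 3.

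**Figure D5:**
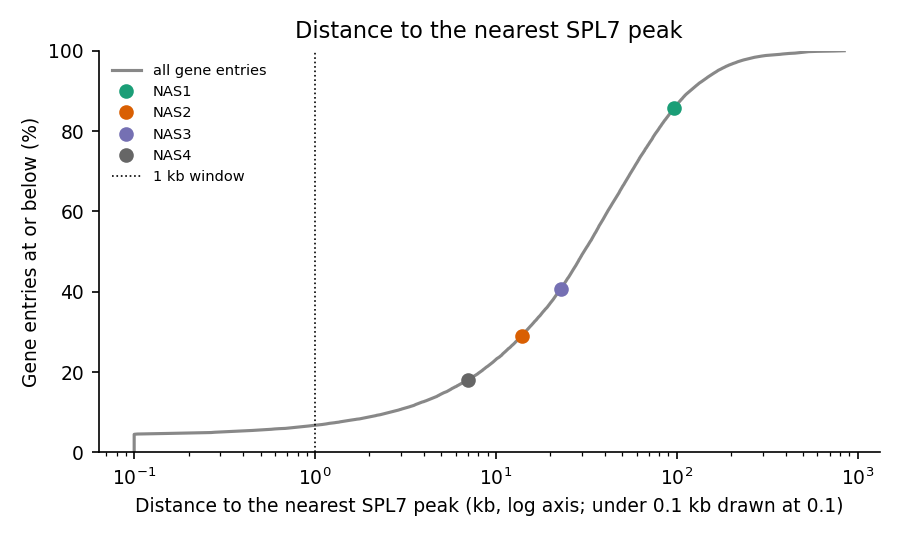
Share of gene entries (vertical axis, percent) whose nearest SPL7 peak lies at or within a distance (horizontal axis, kb on a log scale), with the 4 genes as points and the 1 kb window as a dotted line. All 4 genes lie to the right of the window, from 6.995 kb for NAS4 to 96.914 kb for NAS1.

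Of the 68 genes of the metal and methionine lists, 9 had a peak within 1 kb, where 6.7% of all 27052 entries had one. Among the 9 were SAM1, MAT3 and MAT4, which are 3 of 4 S-adenosylmethionine synthetase genes, and ZIF1. The others were the iron regulators BHLH101 and PYE, the zinc transporters ZIP4 and IRT3, and the ferritin FER1. All were named here after their values were seen. Entries with a peak within 1 kb had a median of 165 FPKM in the mean of the 4 libraries and those without one a median of 26.8 FPKM, and whether level has a part in where peaks were called was not tested. NAS1, the most abundant synthase at 237 to 440 FPKM, had none, like 25239 of all 27052 entries. A single gene cannot show whether level has a part.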

How the data were processed

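Used were 4 RNA-seq libraries and 1 list of ChIP-seq peaks from whole seedlings, with groups taken from the sample titles. FPKM values are those deposited by the authors, computed with Cufflinks after TopHat mapping to TAIR10, with CASAVA 1.8.2 before, per the submitters' processing notes; uniquely mapped reads alone were kept, per the series description. The peak score is as deposited by the authors, after Bowtie mapping to TAIR10; peak names are those of MACS, while its version, threshold and use of the control are not stated there. Locus starts in the files count from 0 and were printed 1-based.

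Low values were searched for steps of whole reads: among entries under 3 FPKM the commonest log2 ratio to wild type on MS held 5.72% to 8.05% of entries, so read depth stays unknown and no counting error is attached.

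Ratios were log2 of FPKM + 1, computed with pandas 2.3.3, and calls and peak windows were tested on simulated data. Of the 68 genes in 7 lists and 27 markers, all matched an entry by locus code or symbol, looked up in a RefSeq table (TAIR10.1). List medians leave out members at 0 in a library compared. Named genes were the NAS genes, SPL7, FSD1, up to 4 counted members per list and comparison, the 3 nearest profiles per gene, and entries beside a NAS gene or its nearest peak. Outside that rule fall ZIF1, ARD3, BHLH101, the root, vasculature and seed markers given by name, the list genes with a peak, and the entries AT2G43140 and AT5G15500. All of these were chosen after their values were seen. The members and lists were chosen with earlier results of these data known. Alternatives were other pseudocounts, minimum levels, ratios, scalings and peak windows.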

Additional observations from a re-analysis of the deposited data

Results flagged for a closer look

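The values below come from the NAS genes and the 9 list genes counted in at least 1 comparison, leaving out any at 0 in a library; 6 of them had ratios of opposite sign under the same contrast, each from 1 library per group, and none of these differences was tested. Such signs are common: of the 60 list genes above 0 in every library and at 5 FPKM or more in 1, copper ratios were of opposite sign in 16 and ratios of spl7 to wild type in 21. The copper ratio of NAS4 was 0.057 in spl7 and -0.039 in wild type, both close to 0 on the log2 scale. The copper ratio of CYP82C4 was 1.58 in spl7 and -0.17 in wild type, and that of FRO2 was 0.38 in spl7 and -0.22 in wild type. The ratio of spl7 to wild type was -0.72 with copper and 0.29 on MS for BHLH038, -0.23 with copper and 0.097 on MS for BHLH039, and -0.97 with copper and 0.67 on MS for BHLH100. NAS2 was not judged, because it was listed at 0 in spl7 on MS.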

How the results depend on the processing

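No paired analysis was possible because each group has 1 library. For spl7 against wild type on MS the count of NAS genes was 0 (1.59% of all entries), and it was 1 with no minimum level (2.61%) or a minimum of 1 FPKM (3.52%), which is NAS2, at 0 in spl7, and 1 at 1.5-fold (NAS3; 5.52%). For copper in wild type it was 1 (1.33%), against 0 with a minimum of 20 FPKM (0.701%), 2 at 1.5-fold (NAS2 and NAS3; 3.68%) and 0 at 4-fold (0.662%). For copper in spl7 it was 2 (2.51%), against 1 with a minimum of 20 FPKM (NAS3; 1.51%) and 1 at 4-fold (NAS2; 1.06%). For the difference of copper ratios it was 1 (NAS2; 2.53%), against 0 with a pseudocount of 5 (1.56%), a minimum of 20 FPKM (1.07%) or 4-fold (1.14%). These moves follow from the limits themselves and, for NAS2, from its value of 0. For spl7 against wild type with copper it stayed at 0. Of 153 single log2 ratios under alternative settings, 148 stayed on their side of the limit, 2 passed it and 3 no longer did, and no called ratio turned. Other minimum levels and fold limits leave the ratio itself unchanged, so only other pseudocounts and scalings could move it. The count of 148 is therefore in large part fixed in advance. The copper ratio of NAS3 ran from -0.94 to -0.88 in wild type and from -1.37 to -1.26 in spl7, and that of NAS2 in wild type from 1.12 to 1.84. No NAS gene had a peak under any window tried, up to 3 kb; the list genes with a peak were 9 (6.70% of all entries), 5 with the higher-scoring peaks alone (3.44%) and 13 with a flank of 3 kb (10.7%). Read depth is unknown, so no value carries a counting error.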

Other observations

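The entries beside the NAS genes were looked at for the same order of libraries. Next to NAS1, 654 bp away, SUVH1, a histone methyltransferase homologue, stood at 47.0 FPKM in spl7 with copper, 52.7 FPKM in spl7 on MS, 55.0 FPKM in wild type with copper and 55.8 FPKM in wild type on MS, without the copper difference of NAS1. Next to NAS2, 592 bp away, AT5G56075 was listed at 0 in all 4 libraries, and on its other side, 2153 bp away, COX15, an assembly factor of cytochrome c oxidase, lay between 75.4 and 90.2 FPKM. Next to NAS3, 808 bp away, AT1G09245 was listed at 0 in all 4 libraries, and AT1G09230, 2256 bp away on the other side, stood at 64.2 FPKM in spl7 with copper, 78.8 FPKM in spl7 on MS, 69.0 FPKM in wild type with copper and 66.9 FPKM in wild type on MS. Next to NAS4, 442 bp away, AT1G56440 stood at 46.9, 34.0, 38.8 and 36.1 FPKM in the same order of libraries. On the other side, 6104 bp away, AT1G56423 stood at 96.7, 80.9, 96.4 and 91.4 FPKM.

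The other 2 entries as low with copper as NAS3 in both genotypes were AT2G43140, at 10.3 FPKM with copper against 30.9 FPKM on MS in spl7 and 9.31 against 28.1 FPKM in wild type, and AT5G15500, at 20.1 against 53.8 FPKM in spl7 and 11.7 against 27.0 FPKM in wild type; both were chosen after their values were seen.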
